A study of Mus musculus with 24 samples.

Results

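The question here is which kidney genes responded to glycerol-induced muscle breakdown differently under an oligonucleotide against miR-22 than under a mock oligonucleotide. Whether miR-22 was blocked in these kidneys was not tested. The measure was a difference of differences on the log2 scale, called the interaction below. It is the anti-miR-22 minus mock difference in injured kidneys, less the same difference in sham kidneys. The same number is the glycerol response under anti-miR-22 less the glycerol response under mock. It was computed for 22205 probes over all 24 arrays of the series, and 85 probes were called, 46 with a positive and 39 with a negative interaction.

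Male C57BL/6N mice aged 10 weeks gave total RNA from a halved kidney, which was hybridised to Clariom S mouse arrays. Array titles defined 4 groups. The 5 sham mock arrays came from mice given the mock oligonucleotide without glycerol, and the 5 sham anti-miR-22 arrays from mice given anti-miR-22 without glycerol. Both rhabdomyolysis groups, with 7 arrays each, came from mice given the same oligonucleotides and then 50% glycerol into the calf muscle. In every group 20 mg/kg of oligonucleotide was injected subcutaneously 24 h ahead of the glycerol step. They also shared 23 h without drinking water (19 h before and 4 h after that step), isoflurane, 5 mg/kg carprofen given on 2 occasions, and kidney collection 24 h after it. No group without an oligonucleotide is among these arrays, so each anti-miR-22 value is relative to mock. A lower and a higher glycerol dose appear in the protocol, and the labels do not say which of them these mice received. Nor do they state that each array is a separate mouse, so a p-value reflects only how these samples vary, which may be partly technical.

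Rhabdomyolysis is the breakdown of skeletal muscle. It releases myoglobin and other muscle contents that are filtered by the kidney and injure mainly the proximal tubule, the segment that reabsorbs most filtered solutes and burns fatty acids for energy. Injured tubule cells lose transporters and metabolic enzymes and gain injury and repair genes. A microRNA guides Argonaute to messenger RNAs through its seed, usually lowering their stability or translation, and an antisense oligonucleotide that pairs with the microRNA blocks that action. miR-22 is expressed in many tissues and has been studied mainly in heart and muscle, in lipid and energy metabolism and in cancer.

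The miRNA and both oligonucleotides are shown because every difference below contrasts the same 2 oligonucleotides. The miRNA is the RefSeq mature sequence (GRCm38.p6, chr11:75463772-75463793, plus strand) with its seed, bases 2 to 8, in capitals. The oligonucleotides are as the protocol gives them, with the 4 positions at which they differ in capitals.
mmu-miR-22-3p: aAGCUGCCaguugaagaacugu
anti-miR-22: ctTcAacTggcAgct
mock: ctAcTacAggcTgct
Anti-miR-22 has 15 bases, all complementary to miRNA bases 2 to 16. The mock has the same length, with 11 complementary bases. Counted from the 5′ end of the oligonucleotide, the changes from anti-miR-22 to mock are T3A, A5T, T8A and A12T, and 1 of these, A12T, lies opposite the seed.

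The arrays carried the marks of injury that the titles imply. Havcr1, the tubular injury marker KIM-1, lay between 17.93 and 19.13 on the 14 rhabdomyolysis arrays and between 6.41 and 7.74 on 9 of the 10 sham arrays. One sham mock array, number 1, stood apart with Havcr1 at 14.59 and Lcn2, the injury marker NGAL, at 13.70, where the other sham mock arrays had 7.75 to 8.91. Without that array 67 probes were called, 34 with a positive and 33 with a negative interaction, and 59 of the 85 were among them. Kidney markers were present. The mean level of 25 measured proximal tubule markers lay between 16.38 and 16.62 on sham arrays. All 5 measured B cell markers, 6 of 10 skeletal muscle markers and 5 of 8 adrenal markers had means below the highest lower quartile of the arrays in every group. Precision is limited by the 5 or 7 arrays per group.

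The called probes held 78 with a gene symbol, all of them described below. Those outside the naming rule were picked after their values were seen. The 85 probes were 0.383% of those tested, 0.207% higher and 0.176% lower. At an unadjusted p below 0.05 the share was 12.4%, made up of 5.98% higher and 6.39% lower. The median interaction over all probes was 0.00. Among the called probes the median size was 1.04 (log2) and the median standard error 0.22. The count changed with single arrays. It fell to 51, 34, 56 and 54 without sham mock 2, 3, 4 or 5, and to 30, 45, 40 and 55 without sham anti-miR-22 1, 2, 4 or 5. Without rhabdomyolysis mock 5 it was 39, without rhabdomyolysis anti-miR-22 4 or 6 it was 28 and 49, and without rhabdomyolysis mock 3 it was 138. No called probe changed sign in these fits. The weakest calls were those of 16 probes called in fewer than 10 of the 24 fits. They were Lrrc52 and Slc49a4 (4 fits each), Stau2 and Metap1d (5), Cdk8, Kdr, Ncaph2, Osmr and Chst3 (6), Ddx24, Arf2 and Rbmx2 (7), Plch1 (8), Nars (9) and a pair of probes without a symbol (8 and 9). Of the 85 probes, 23 were called in all 24 fits that left out 1 array and in all 6 other alternatives. They were Zbtb16, Ttpa, Pim3, Golm1, Rgcc, Zfp664, Tmem251, Cstb, Polr2h, Nop2, Kti12, Phldb1, Tsr2 and Phf1 with a positive interaction, and Slc15a3, Dctn4, Trip12, Kdm5b, Ano10, Exoc4, Slc43a2, Ptprk and a probe without a gene symbol with a negative one.

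**Figure D1:**
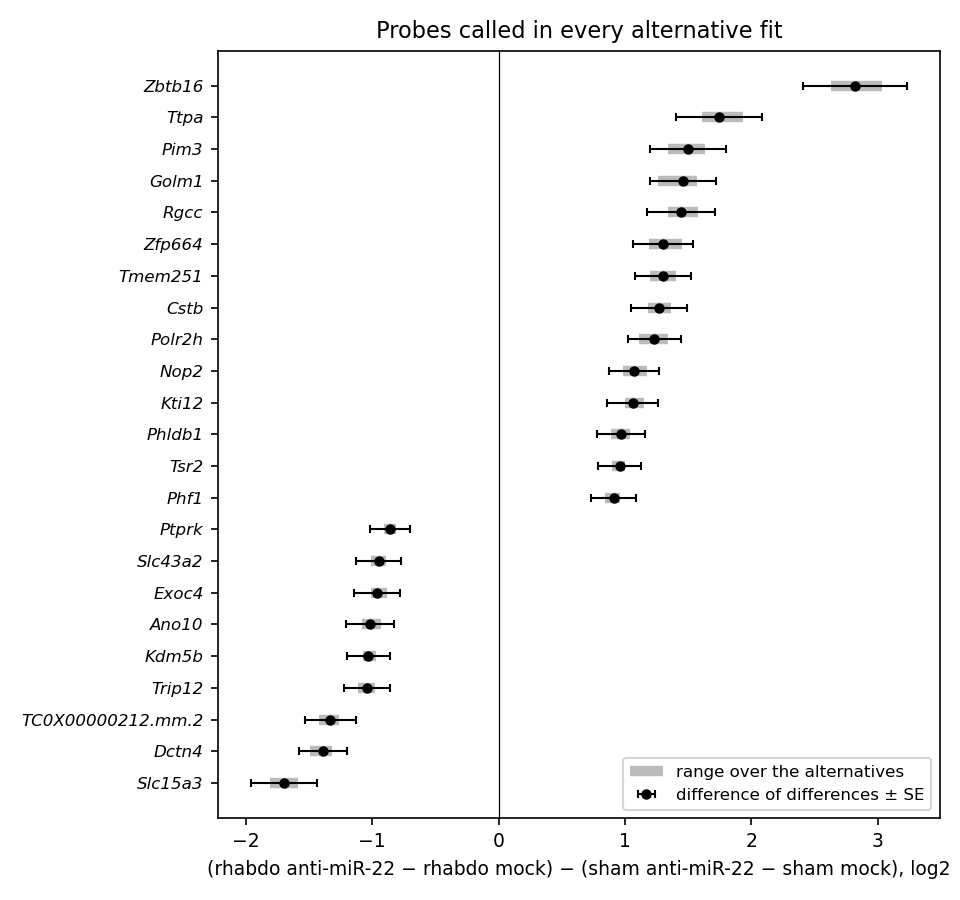
Interaction (log2, x axis) of the 23 probes called in every alternative, with 1 standard error as black bars and the range over the 30 alternatives as grey bars. Zbtb16 is the farthest right at 2.82 and Slc15a3 the farthest left at -1.70, and no grey bar crosses 0.

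For most called probes the oligonucleotides differed mainly after injury. The anti-miR-22 minus mock difference was larger in size in rhabdomyolysis than in sham kidneys for 74 of the 85. It was called in rhabdomyolysis alone for 60 (36 higher, 24 lower), in sham alone for 5, in both with the same sign for 17 and in both with opposite signs for 3. Over all probes this difference was called for 7.16% in sham (1590 probes) and for 19.6% in rhabdomyolysis (4360). It was called in both with the same sign for 1218 and with opposite signs for 3. Calls in rhabdomyolysis alone were thus the largest class over all probes too. The groups differ in size, and the median standard error of this difference was 0.18 in sham and 0.15 in rhabdomyolysis. The values of the rhabdomyolysis groups did not overlap for 64 of the 85, and those of the sham groups for 30. Over all probes these shares were 7.37% (7 against 7 arrays) and 8.27% (5 against 5), and the 85 were chosen on the same arrays. How often the difference was larger in rhabdomyolysis than in sham kidneys was not counted over all probes.

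**Figure D2:**
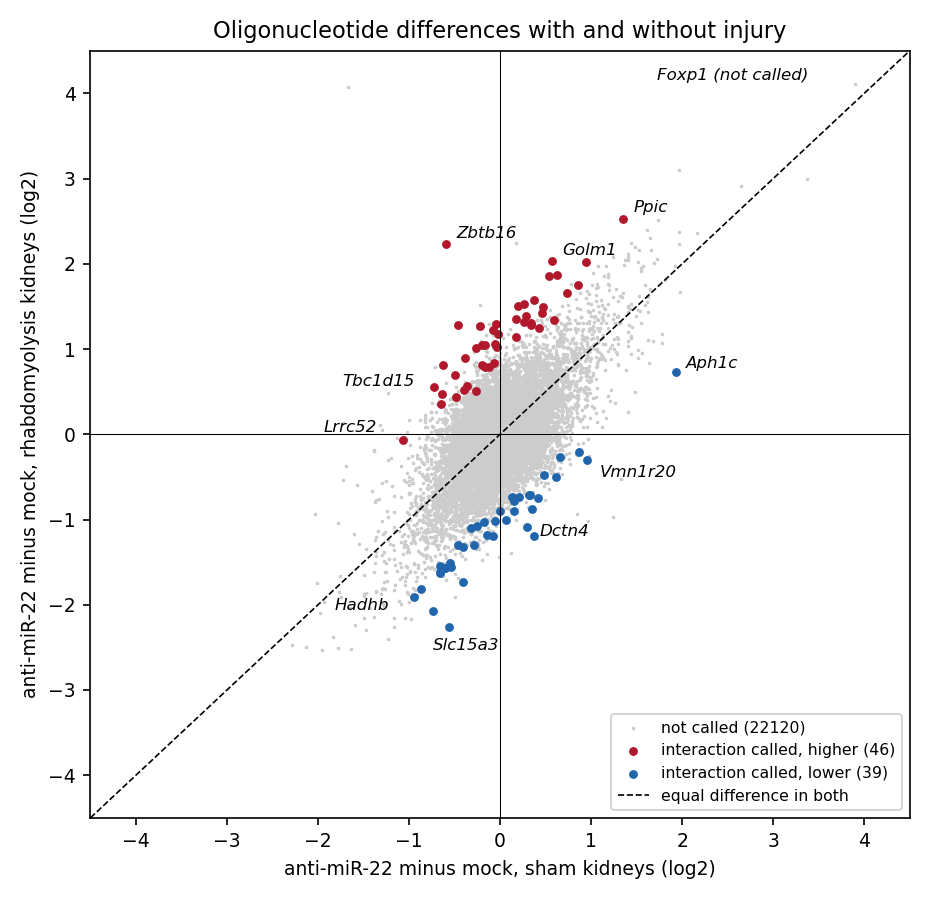
Anti-miR-22 minus mock difference (log2) in sham kidneys (x axis, 5 against 5 arrays) and in rhabdomyolysis kidneys (y axis, 7 against 7 arrays) for all 22205 probes. Red points are the 46 called probes with a positive and blue points the 39 with a negative interaction, the dashed line marks equal differences, and Foxp1 lies near that line at 3.90 and 4.11.

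Seen as glycerol responses, 8 of the 85 probes moved in opposite directions under the oligonucleotides, both responses being called. Another 34 were called in the same direction under both, 31 under anti-miR-22 alone and 12 under mock alone. Glycerol responses were called for 34.4% of all probes with mock and for 37.4% with anti-miR-22. They share no arrays with each other, but each shares its arrays with the interaction. Over all probes, 12 had glycerol responses called in opposite directions. The response was the larger under anti-miR-22 for 37 of the 46 probes with a positive and for 27 of the 39 with a negative interaction. That was not counted over all probes, and the 85 were chosen on the same arrays.

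Zbtb16 had the largest called interaction. It encodes a zinc finger transcriptional repressor, PLZF, and is a known glucocorticoid-induced gene. Its log2 values were 7.62, 8.60, 7.32, 8.69 and 8.56 on the sham mock arrays and 7.53, 7.30, 7.04, 7.74 and 8.20 on the sham anti-miR-22 arrays. The rhabdomyolysis mock arrays had 6.78 at the lowest, 7.34 at the median and 8.08 at the highest, and the rhabdomyolysis anti-miR-22 arrays had 8.95, 9.50 and 10.80. All 7 arrays of injured kidneys given anti-miR-22 thus lay above every other array, while the other 3 groups overlapped. Glycerol lowered it by -0.76 (log2) with mock and raised it by 2.06 with anti-miR-22, an interaction of 2.82 ± 0.41 (SE, limma, adjusted p = 0.00135). Without sham mock array 1 the interaction was 2.96.

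Zbtb16 was the only called member of the 16 measured glucocorticoid-responsive genes. At an unadjusted p below 0.05, 3 of the 16 were higher (18.8%) and 2 lower (12.5%), and the median interaction was 0.30. Without sham mock 3 there were 5 higher, and 1 to 3 were lower in fits without 1 array. Besides Zbtb16, the higher ones were Fkbp5, a co-chaperone of the glucocorticoid receptor, with 1.09 ± 0.29 (limma, adjusted p = 0.0759), and Tsc22d3, which encodes the anti-inflammatory protein GILZ, with 0.93 ± 0.30 (adjusted p = 0.158). Both had their larger oligonucleotide difference in sham kidneys. It was -1.13 in sham and -0.04 in rhabdomyolysis for Fkbp5, and -1.23 and -0.30 for Tsc22d3. Zbtb16 had the opposite layout, with -0.59 in sham and 2.23 in rhabdomyolysis. The lower members were Ddit4, an inhibitor of mTORC1 signalling, at -0.97 ± 0.26 (adjusted p = 0.0829) and Nr3c2, the mineralocorticoid receptor, at -0.55. Rasd1, a Ras-like gene first described as induced by dexamethasone and not on the list, had a called interaction of 1.12 ± 0.23 (adjusted p = 0.0249). Its sham means of 3.65 and 3.59 lay below the arrays' lower quartiles, so its fold is not exact.

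**Figure D3:**
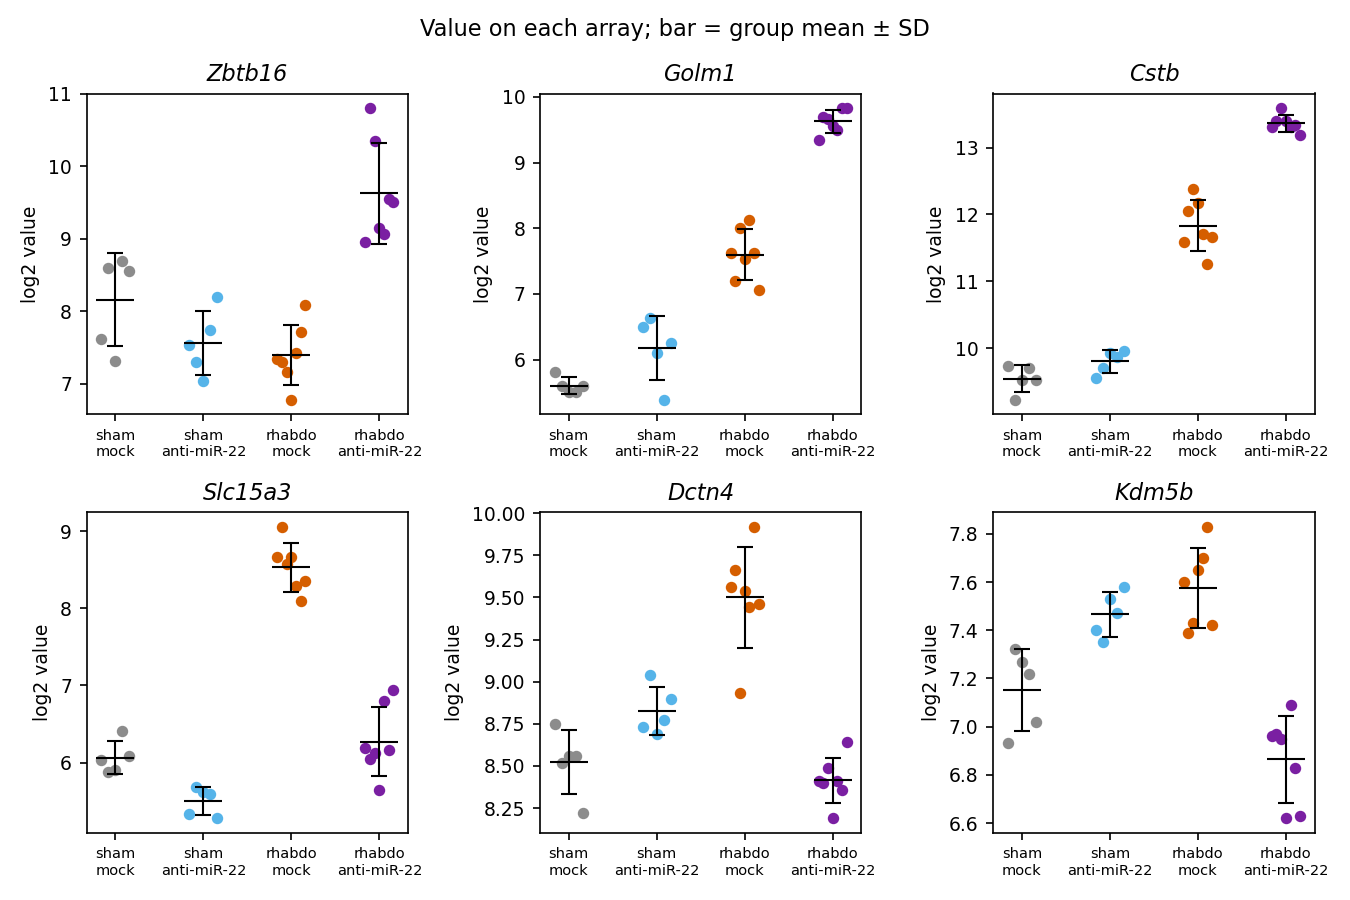
Log2 value on each array (points) of 6 genes in the 4 groups, with the group mean and SD as black bars, n = 5, 5, 7 and 7. Zbtb16, Golm1 and Cstb are highest in injured kidneys given anti-miR-22, while Slc15a3, Dctn4 and Kdm5b are highest in injured kidneys given mock.

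Several genes that glycerol raised with mock rose further with anti-miR-22. Golm1, a Golgi membrane protein known as GP73, had sham mock values of 5.81, 5.60, 5.50, 5.51 and 5.60 and sham anti-miR-22 values of 6.50, 6.63, 6.10, 5.39 and 6.25. The lowest, median and highest values were 7.06, 7.62 and 8.13 on rhabdomyolysis mock arrays and 9.34, 9.66 and 9.83 on rhabdomyolysis anti-miR-22 arrays. The injured groups were fully separate and the sham groups overlapped. The glycerol response was 2.00 with mock and 3.45 with anti-miR-22, and the interaction was 1.46 ± 0.26 (adjusted p = 0.00851).

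Cstb, which encodes cystatin B, an inhibitor of lysosomal cathepsins, followed the same order with less spread. Its sham mock values were 9.73, 9.23, 9.53, 9.70 and 9.53 and its sham anti-miR-22 values 9.55, 9.70, 9.93, 9.87 and 9.96. It ran from 11.26 through a median of 11.71 to 12.38 on rhabdomyolysis mock arrays, and from 13.19 through 13.34 to 13.59 on rhabdomyolysis anti-miR-22 arrays. Every rhabdomyolysis anti-miR-22 array was above every rhabdomyolysis mock array. The responses of 2.29 and 3.56 gave an interaction of 1.27 ± 0.22 (adjusted p = 0.00639). Cst3, the secreted cystatin C of the same superfamily, did not share this pattern. Its oligonucleotide difference was -2.29 in sham and -2.47 in rhabdomyolysis, with an interaction of -0.18 ± 0.21 (adjusted p = 0.797).

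Tmem251 is needed to tag enzymes for delivery to the lysosome. It had 10.17, 10.29, 10.58, 10.26 and 10.09 on sham mock arrays and 10.37, 10.21, 10.87, 10.16 and 10.80 on sham anti-miR-22 arrays. The rhabdomyolysis arrays had 10.05, 10.68 and 10.97 (lowest, median, highest) with mock and 11.93, 12.11 and 12.49 with anti-miR-22. Only the injured kidneys given anti-miR-22 stood apart. The response to glycerol was 0.37 with mock, which was not called, and 1.67 with anti-miR-22, and the interaction was 1.30 ± 0.22 (adjusted p = 0.00639). Of 25 measured lysosome and cystatin genes Cstb alone was called, 4 were higher (16%) and 2 lower (8%) at an unadjusted p below 0.05, and the median was -0.02. There were 2 higher without rhabdomyolysis anti-miR-22 5, and 4 lower without sham mock 4 or rhabdomyolysis mock 1. The lower ones were the cholesterol exporter Npc1 (-0.93) and the protease Ctsc, cathepsin C (-0.80), neither of them called.

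Ttpa carries vitamin E (alpha-tocopherol) between membranes. Its sham mock values were 8.04, 8.55, 8.61, 7.32 and 7.95, and its sham anti-miR-22 values 7.85, 7.45, 7.97, 7.79 and 7.13. Rhabdomyolysis arrays had 10.45, 11.14 and 11.90 with mock and 11.87, 12.47 and 13.00 with anti-miR-22, ranges that met at their edges. Glycerol raised it under both, by 3.03 and by 4.77, and the interaction was 1.74 ± 0.34 (adjusted p = 0.0210).

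Fosl1 encodes Fra-1, a subunit of the AP-1 transcription factor. It lay between 5.28 and 6.14 on all 10 sham arrays. Its rhabdomyolysis values were 8.91, 9.29 and 9.47 with mock and 9.70, 10.52 and 11.31 with anti-miR-22, without overlap. The responses of 3.43 and 4.77 gave an interaction of 1.34 ± 0.29 (adjusted p = 0.0338), which was called in 16 of the 24 fits without 1 array. Among 23 measured immediate early genes Fosl1 was the called one. Atf3, a stress-induced transcription factor, had 0.91 ± 0.25 (adjusted p = 0.0918) and Ier3, an early response gene, 0.66 ± 0.30 (adjusted p = 0.359). These 3 made up 13% of the list at an unadjusted p below 0.05, none was lower, and the median was 0.09.

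A second set changed with glycerol under anti-miR-22 alone. Pim3, a serine/threonine kinase of the PIM family, had 8.56, 9.22, 8.99, 9.48 and 9.31 on sham mock arrays and 8.89, 9.22, 8.97, 8.28 and 9.08 on sham anti-miR-22 arrays. It had 8.50, 8.93 and 9.11 on rhabdomyolysis mock and 9.43, 10.22 and 10.92 on rhabdomyolysis anti-miR-22 arrays, so the injured groups did not overlap. Its interaction was 1.50 ± 0.30 (adjusted p = 0.0210). Rgcc, a regulator of the cell cycle, was the reverse in sham kidneys, where anti-miR-22 values (5.25 to 5.82) lay below mock values (5.88 to 6.51). In injured kidneys it had 5.76, 5.96 and 6.22 with mock and 5.93, 7.08 and 7.38 with anti-miR-22, which overlapped. Its interaction was 1.44 ± 0.27 (adjusted p = 0.0154). Angptl8, a secreted regulator of lipoprotein lipase, had sham values of 3.97 to 5.45 over both groups, 3.98 to 4.39 in injured kidneys given mock and 5.13 to 6.57 with anti-miR-22. Its interaction was 1.31 ± 0.28 (adjusted p = 0.0297). Avpi1, a gene induced by vasopressin (1.30), the zinc finger gene Zfp664 (1.30) and Gramd4, a GRAM domain gene (1.27), were also called.

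The 3 named genes Cdk8, Mbd6 and Snn, like Zbtb16, fell with glycerol under mock and rose under anti-miR-22. Cdk8 is the kinase of the Mediator complex, which links transcription factors to RNA polymerase II. It had 9.98, 10.45, 10.27, 9.83 and 9.63 on sham mock arrays and 10.84, 10.32, 10.90, 10.40 and 10.80 on sham anti-miR-22 arrays. The rhabdomyolysis values were 8.67, 9.58 and 9.83 with mock and 10.73, 11.37 and 11.78 with anti-miR-22. The injured groups were separate, and the sham groups overlapped. Responses of -0.64 and 0.61 gave an interaction of 1.25 ± 0.29 (adjusted p = 0.0494), close to the threshold and called in 6 of the 24 fits without 1 array. Mbd6, a methyl-CpG-binding domain protein, had responses of -0.58 and 0.67 and an interaction of 1.24 ± 0.27 (adjusted p = 0.0338). Snn, a small membrane protein, had -0.62 and 0.49 and an interaction of 1.10 ± 0.24 (adjusted p = 0.0339).

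Other transcription and chromatin genes were called in both directions. Polr2h encodes a subunit shared by RNA polymerases I, II and III. It had 7.41, 7.00, 6.96, 6.83 and 6.55 on sham mock and 6.78, 6.69, 7.24, 6.62 and 6.57 on sham anti-miR-22 arrays. It ran from 6.72 to 7.36 on rhabdomyolysis mock and from 7.72 to 8.24 on rhabdomyolysis anti-miR-22 arrays, above every other array, with an interaction of 1.23 ± 0.21 (adjusted p = 0.00664). Cxxc1, a subunit of the SET1 histone H3K4 methyltransferases (1.20 ± 0.24), Med19, a Mediator subunit (0.95 ± 0.21), and Phf1, a partner of Polycomb complex PRC2 (0.91 ± 0.18), were also higher. Of the 27 measured members of the Mediator and coactivator list, to which Cdk8 and Med19 do not belong, none was called. At an unadjusted p below 0.05, 3 were higher (Med4, Med31 and Med12), and 4 lower (Med23, Ncoa1, Med24 and Ncoa2), with a median of 0.06. There were 5 higher without sham mock 1 or rhabdomyolysis mock 7.

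Kdm5b, a histone H3K4 demethylase, and Sin3b, a corepressor that recruits histone deacetylases, moved the other way. Kdm5b had 6.93, 7.32, 7.27, 7.22 and 7.02 on sham mock and 7.40, 7.35, 7.53, 7.47 and 7.58 on sham anti-miR-22 arrays, all above the sham mock arrays. In injured kidneys the order was turned, with 7.39, 7.60 and 7.83 under mock and 6.62, 6.95 and 7.09 under anti-miR-22. Glycerol raised it by 0.42 with mock and lowered it with anti-miR-22 (-0.60), an interaction of -1.03 ± 0.17 (adjusted p = 0.00608). Sin3b had a mean of 8.07 in both sham groups and responses of 0.39 and -0.51, an interaction of -0.90 ± 0.19 (adjusted p = 0.0274). Hdac8, a histone deacetylase (-0.93 ± 0.21), and Trip12, an E3 ubiquitin ligase (-1.04 ± 0.18, adjusted p = 0.00851), were also lower. Of 30 measured chromatin remodeller genes none was called.

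In lists of ribosome assembly, ribosomal proteins and RNA processing, more members were higher than lower at the unadjusted threshold. Nop2, a methyltransferase of ribosomal RNA, lay between 9.34 and 10.08 on all sham arrays. It had 11.27, 11.51 and 11.95 in injured kidneys given mock and 12.21, 12.59 and 12.87 with anti-miR-22, without overlap. Its responses were 1.82 and 2.89, with an interaction of 1.07 ± 0.20 (adjusted p = 0.0149). Nop2 was the only called member of 29 measured ribosome biogenesis genes. At an unadjusted p below 0.05, 8 of them were higher (27.6%) and 2 lower (6.9%), while the median was 0.02. The higher ones included Nop58 (0.80) and Nop14 (0.69), both factors of small subunit and nucleolar RNA assembly, and Npm1 (0.68) and Ncl (0.59), which encode the abundant nucleolar proteins nucleophosmin and nucleolin. Mybbp1a (-0.86) and Rrs1 (-0.60) were the lower ones. The list's median oligonucleotide difference was -0.24 in sham kidneys, where 0 of the 29 were called higher and 4 lower. In rhabdomyolysis it was -0.19, with 6 called higher and 11 lower by that difference.

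Of 59 cytosolic ribosomal protein genes, 13 were higher at an unadjusted p below 0.05 (22%) and 2 lower (3.39%). Of 76 mitochondrial ribosomal protein genes, 13 were higher (17.1%) and 1 lower (1.32%). The medians were 0.19 and 0.15, and no member of either list was called. The range over the fits without 1 array was 10 to 17 higher for the cytosolic and 10 to 16 for the mitochondrial genes. The largest were Rpl39 (0.78 ± 0.22) and Rpl5 (0.68 ± 0.18) among cytosolic, and Mrpl47 (0.95 ± 0.31) and Mrpl38 (0.81 ± 0.20) among mitochondrial genes. The cytosolic genes responded to glycerol with a median of 0.67 under mock and 0.90 under anti-miR-22. Their median oligonucleotide difference was -0.20 in sham, where 1 was called higher and 11 lower, and 0.01 in rhabdomyolysis, where 8 were called higher and 14 lower. The mitochondrial count lower was 0 to 3 in fits without 1 array.

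Splicing and RNA-binding genes carry the same imbalance. Of 40 measured, 11 were higher (27.5%) and 0 lower at an unadjusted p below 0.05, with a median interaction of 0.18 and no call. The range without 1 array was 8 to 12 higher. Their median oligonucleotide difference was 0.02 in sham and 0.30 in rhabdomyolysis, and the median glycerol response was 0.26 with mock and 0.58 with anti-miR-22. The splicing factor Srsf5 fell by 1.18 with glycerol under mock and had -0.09 under anti-miR-22, an interaction of 1.09 ± 0.28 (adjusted p = 0.0681). Clk1, a kinase of such splicing factors, had responses of -1.12 and -0.16 and an interaction of 0.96 ± 0.30 (adjusted p = 0.135). Luc7l3 (0.86), Hnrnpa2b1 (0.78), Srsf6 (0.70), Hnrnpd (0.66), Ewsr1 (0.65), U2af1 (0.62) and Srsf2 (0.61) followed.

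Further called genes of related work belong to no list. Tsr2, a chaperone of a ribosomal protein (0.96 ± 0.17), Kti12, a factor of transfer RNA modification (1.06 ± 0.20), and Pa2g4, a ribosome-associated growth regulator (0.82 ± 0.18), were higher. So were Nars, asparaginyl transfer RNA synthetase (0.92 ± 0.21), Rbmx2, a splicing protein (0.91 ± 0.21), and Pfdn2, a subunit of the chaperone prefoldin (1.08 ± 0.22). Ddx24, an RNA helicase (-0.84 ± 0.20), and Stau2, which binds double-stranded RNA (-0.83 ± 0.19), were lower. Psma7, a core subunit of the proteasome, had 10.14 to 10.63 on sham mock and 10.52 to 11.00 on sham anti-miR-22 arrays. Its injured groups were separate, at 10.78 to 11.44 with mock and 11.91 to 12.61 with anti-miR-22, and its interaction was 0.94 ± 0.21 (adjusted p = 0.0378). No other of the 30 measured proteasome genes was called, and the list's median was 0.09.

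Slc15a3 had the most negative called interaction. It encodes a peptide and histidine transporter of endolysosomes found in immune cells. Its values were 6.04, 5.88, 5.90, 6.41 and 6.09 on sham mock arrays and 5.33, 5.68, 5.62, 5.60 and 5.28 on sham anti-miR-22 arrays. Injured kidneys had 8.09, 8.58 and 9.06 with mock and 5.64, 6.17 and 6.94 with anti-miR-22. Glycerol with mock raised every array above all others, and with anti-miR-22 the values spanned the sham mock range. The responses were 2.47 and 0.77, and the interaction was -1.70 ± 0.26 (adjusted p = 0.00191).

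A sensor and a receptor of innate and cytokine signalling were also lower. Ifih1 encodes MDA5, a cytoplasmic sensor of double-stranded RNA. It had 8.90, 9.14, 9.11, 9.07 and 9.03 on sham mock and 9.65, 9.30, 9.30, 9.45 and 9.32 on sham anti-miR-22 arrays, the latter all higher. In injured kidneys it had 9.12, 9.28 and 9.86 with mock and 7.75, 8.50 and 9.16 with anti-miR-22, which overlapped slightly, and the interaction was -1.23 ± 0.25 (adjusted p = 0.0248). Osmr, the receptor of the cytokine oncostatin M, lay between 6.02 and 7.77 on sham arrays. It had 10.25, 10.86 and 11.03 in injured kidneys given mock and 9.69, 9.90 and 10.40 with anti-miR-22, which overlapped. Responses of 3.98 and 2.82 gave an interaction of -1.16 ± 0.27 (adjusted p = 0.0487), called in 6 of the 24 fits without 1 array.

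Interferon-stimulated, inflammatory and macrophage genes had more members lower than higher, neutrophil markers did not, and none of these lists had a further call. Of 22 measured interferon-stimulated genes, 4 were lower (18.2%) and 1 higher (4.55%) at an unadjusted p below 0.05, with a median of -0.14, but the number lower ranged from 1 to 6 without 1 array. It was 1 without sham mock 3 or 5, and 2 without sham anti-miR-22 1, 4 or 5, rhabdomyolysis mock 6 or rhabdomyolysis anti-miR-22 2, 3 or 4. Of 31 inflammatory mediators, 6 were lower (19.4%) and 0 higher, with a median of -0.02. They were the interleukin 1 antagonist Il1rn (-1.18), the chemokines Cxcl1 (-0.94), Cxcl10 (-0.89) and Ccl5 (-0.87), and the adhesion molecules Icam1 (-0.56) and Sele (-0.55). Of 14 macrophage markers, 5 were lower (35.7%) and 0 higher, with a median of -0.23. These were Cd14 (-1.14), the colony-stimulating factor receptor Csf1r (-1.01 ± 0.26, adjusted p = 0.0681), Cx3cr1 (-0.81), Lyz2 (-0.78) and C1qb (-0.49), and without sham mock 3 there were 3. The mean level of all 14 markers was 5.63 to 5.97 on sham mock, 5.96 to 6.12 on sham anti-miR-22, 6.62 to 7.14 on rhabdomyolysis mock and 6.53 to 7.07 on rhabdomyolysis anti-miR-22 arrays. The injured groups overlapped in that level. Of 11 neutrophil markers 1 was higher (9.09%) and 0 lower, with a median of 0.25, and the count higher was 0 to 2 in fits without 1 array. In injured kidneys 3 of the 11 had a called positive oligonucleotide difference, and their mean level was 4.20 to 4.71 with mock and 4.41 to 5.00 with anti-miR-22, with overlap. In sham kidneys it was 4.07 to 4.32 and 4.17 to 4.22. In whole kidney RNA, fewer cells of a type and less RNA per cell cannot be told apart.

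Dctn4, a subunit of dynactin, the activator of the dynein motor, had the smallest adjusted p of all probes. It had 8.75, 8.52, 8.56, 8.56 and 8.22 on sham mock and 8.73, 9.04, 8.69, 8.77 and 8.90 on sham anti-miR-22 arrays. Injured kidneys had 8.93, 9.54 and 9.92 with mock and 8.19, 8.41 and 8.64 with anti-miR-22. The sham groups overlapped and the injured groups did not. Glycerol raised it by 0.98 with mock and lowered it with anti-miR-22 (-0.41), an interaction of -1.39 ± 0.19 (adjusted p = 0.00130). Exoc4, a subunit of the exocyst, which docks secretory vesicles (-0.96 ± 0.18, adjusted p = 0.0139), Ano10, a member of the anoctamin family (-1.02 ± 0.19), and AU040320 (-0.97 ± 0.22) were lower too. Aph1c, a subunit of gamma-secretase, was higher with anti-miR-22 in both settings. It had 7.04 to 7.59 on sham mock and 8.74 to 9.85 on sham anti-miR-22 arrays, but 6.07 to 7.05 and 7.04 to 7.65 in injured kidneys, and its interaction was -1.20 ± 0.24 (adjusted p = 0.0228).

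Proximal tubule markers formed the list with the largest share lower at the unadjusted threshold. Of 25 measured, 14 were lower (56%) and 0 higher, with a median interaction of -0.55 (log2) and no member called. In fits without 1 array the number lower was 13 to 15, and it was 15 without sham mock array 1. The median glycerol response of the list was -1.52 with mock and -2.29 with anti-miR-22. The median oligonucleotide difference was -0.03 in sham and -0.57 in rhabdomyolysis. The mean level of all 25 was 16.46 to 16.61 on sham mock and 16.38 to 16.62 on sham anti-miR-22 arrays, which overlapped. It was 14.18 to 14.89 on rhabdomyolysis mock and 13.75 to 14.36 on rhabdomyolysis anti-miR-22 arrays, lower under anti-miR-22 with a small overlap.

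The 14 lower markers, like the list itself, were mainly transporters and uptake receptors. Slc13a3, a carrier of dicarboxylates, had responses of -1.52 and -2.95 and an interaction of -1.43 ± 0.46 (adjusted p = 0.149). Slc5a12, a lactate transporter, had -3.65 and -4.70 and an interaction of -1.05 ± 0.40 (adjusted p = 0.248). Slc4a4, the basolateral bicarbonate exporter, was nearest to the threshold at -0.92 ± 0.23 (adjusted p = 0.0595). Lrp2 and Cubn, which encode megalin and cubilin, the receptors for filtered protein, had -0.75 ± 0.19 (adjusted p = 0.0681) and -0.76 ± 0.23 (adjusted p = 0.126). Slc22a8 (-0.87) and Slc22a6 (-0.63) take up organic anions. Mep1a, Mep1b, Slc7a8, Fbp1, Cyp2e1, Slc3a1 and Slc27a2 were the others. The 11 markers that did not pass included Gatm (-0.03), Cyp4b1 (-0.05), Kap (-0.09) and the phosphate transporter Slc34a1 (-0.14), with Acsm2 and the water channel Aqp1 positive (0.30 each).

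**Figure D4:**
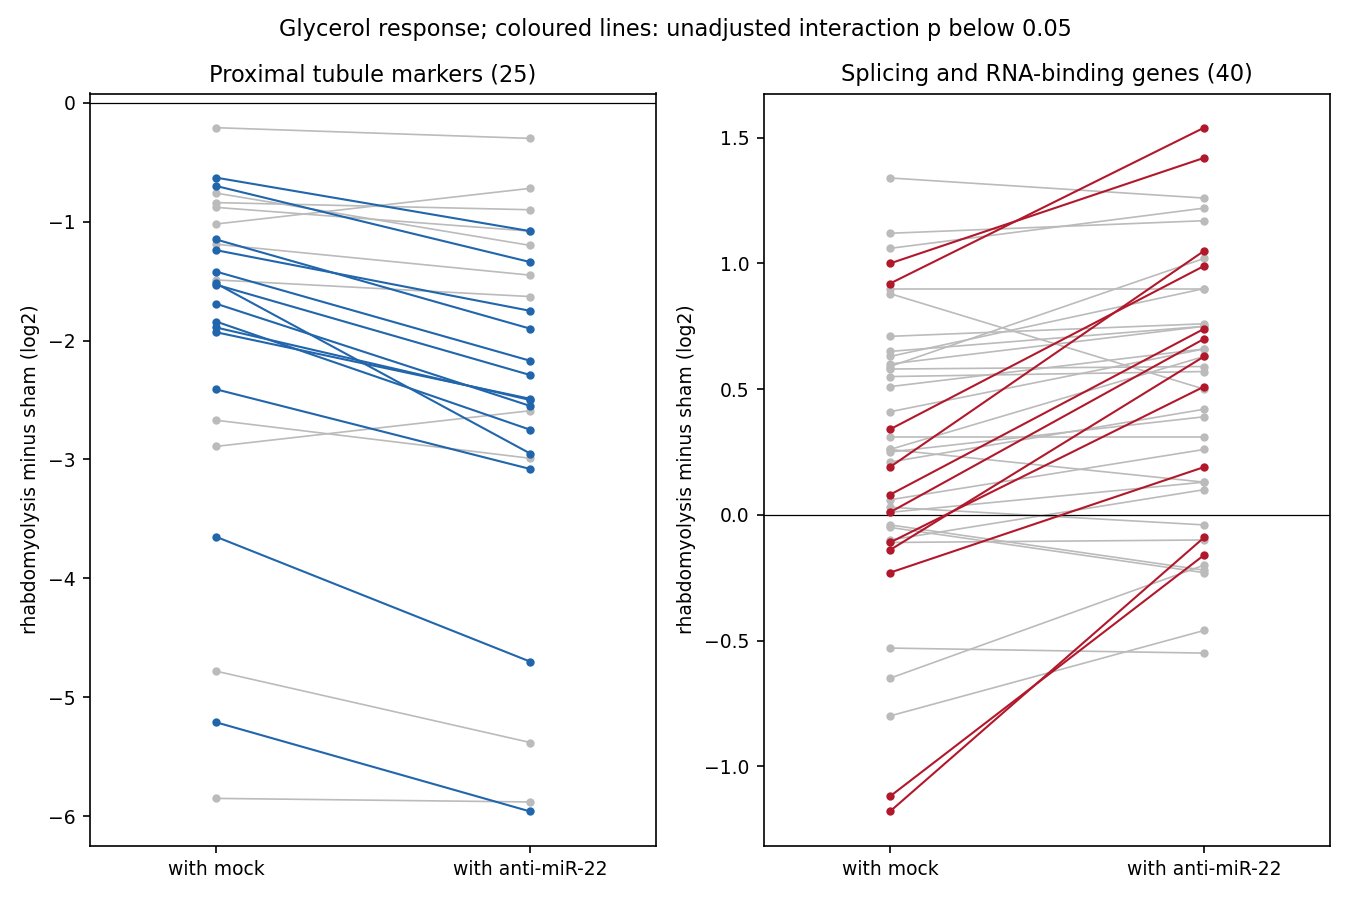
Glycerol response (rhabdomyolysis minus sham, log2, y axis) of each gene with mock and with anti-miR-22, for 25 proximal tubule markers on the left and 40 splicing and RNA-binding genes on the right. Blue lines are the 14 markers lower and red lines the 11 RNA genes higher at an unadjusted interaction p below 0.05, and grey lines are the others.

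The list of amino acid and organic ion transporters, 3 of whose members past the threshold are also proximal tubule markers, had 7 of 29 lower (24.1%) and 0 higher, with a median of -0.32. Its called member was Slc43a2, a carrier of neutral amino acids out of tubule cells. It had 13.24, 13.06, 12.89, 12.94 and 12.81 on sham mock and 13.42, 13.19, 13.03, 13.06 and 13.29 on sham anti-miR-22 arrays. Injured kidneys had 11.36, 11.68 and 11.92 with mock and 10.64, 10.89 and 11.14 with anti-miR-22, so only the injured groups were separate. The responses of -1.34 and -2.28 gave an interaction of -0.95 ± 0.18 (adjusted p = 0.0134). Slc7a12, an amino acid transporter (-1.99 ± 0.63, adjusted p = 0.143), and Slc22a7, an organic anion transporter (-1.77 ± 0.57, adjusted p = 0.147), had larger interactions with wider errors.

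Of 23 measured fatty acid oxidation genes, 7 were lower (30.4%) and 1 higher (4.35%), with a median of -0.18. Hadhb, a subunit of the mitochondrial trifunctional protein, was called. It had 13.32, 13.79, 13.54, 13.73 and 13.48 on sham mock and 12.58, 12.57, 12.68, 12.65 and 12.65 on sham anti-miR-22 arrays. Injured kidneys had 12.70, 12.98 and 13.46 with mock and 10.94, 11.12 and 11.49 with anti-miR-22. Anti-miR-22 values were below mock values without overlap in both settings, by -0.95 in sham and -1.91 in rhabdomyolysis, and the interaction was -0.96 ± 0.20 (adjusted p = 0.0274). Ehhadh (-0.85), Acaa2 (-0.74), Cpt2 (-0.69) and Acadm (-0.66) act in the same pathway and were not called. Ppara, the transcription factor that drives it, had -0.59 ± 0.26 (adjusted p = 0.337). Acadl was the higher member (0.44).

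Other called genes of tubular metabolism and transport were lower. Ddc makes dopamine in proximal tubule cells. It had 10.52 to 10.88 on sham mock and 10.17 to 10.43 on sham anti-miR-22 arrays, and 9.80 to 11.01 against 7.88 to 9.01 in injured kidneys. Its oligonucleotide difference was -0.41 in sham and -1.73 in rhabdomyolysis, an interaction of -1.32 ± 0.27 (adjusted p = 0.0248). Acad11, an acyl-CoA dehydrogenase (-1.01 ± 0.22), Rfk, the riboflavin kinase (-0.94 ± 0.20), and Park7, which encodes the antioxidant protein DJ-1 (-0.98 ± 0.22), were lower. The carriers Slc16a7 for monocarboxylates (-0.91 ± 0.21), Slc25a11 for mitochondrial oxoglutarate (-0.77 ± 0.17) and Sfxn5, a mitochondrial sideroflexin (-0.92 ± 0.19), were lower too. On a linear scale of group means the signs of Slc16a7 and Slc25a11 were the opposite. By contrast Cryz, a quinone reductase (1.02 ± 0.21), Sugct, a mitochondrial CoA transferase (1.20 ± 0.27), Tamm41, an enzyme of cardiolipin synthesis (1.19 ± 0.26), and Metap1d, a mitochondrial aminopeptidase (1.01 ± 0.23), were higher. Of 28 measured respiratory chain genes, 2 were higher and 2 lower at an unadjusted p below 0.05, with a median of 0.01.

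Kdr, the main endothelial receptor of VEGF, was the called member of 11 endothelial markers. It had 11.79 to 12.34 on sham mock and 11.21 to 11.70 on sham anti-miR-22 arrays, and 10.63 to 11.36 against 9.04 to 10.01 in injured kidneys, without overlap in either setting. Its interaction was -0.96 ± 0.22 (adjusted p = 0.0436), called in 6 of the 24 fits without 1 array and not called with the replicate number as a block (adjusted p = 0.0506). On a linear scale of group means its sign was the opposite. Pecam1 (-0.61 ± 0.20, adjusted p = 0.170) and Plvap (-0.52 ± 0.19, adjusted p = 0.206) were the other 2 lower at an unadjusted p below 0.05, together 27.3% of the list, and the median was -0.15. The mean level of the 11 markers was 10.51 to 10.73 on sham mock and 10.25 to 10.53 on sham anti-miR-22 arrays. It was 10.24 to 10.53 on rhabdomyolysis mock and 9.87 to 10.08 on rhabdomyolysis anti-miR-22 arrays, without overlap. The part of this level in the Kdr value was not tested.

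Of 21 matrix and fibrosis genes, 6 were lower (28.6%) and 2 higher (9.52%), with a median of -0.38 and no call. Fn1, fibronectin (-0.85 ± 0.29), and the collagen genes Col1a2 (-0.71 ± 0.25) and Col1a1 (-0.69 ± 0.28) were lower. Ccn1 (0.91 ± 0.33) and Ccn2 (0.74 ± 0.31), matricellular proteins, were higher, Ccn2 with an oligonucleotide difference of -1.78 in sham and -1.04 in rhabdomyolysis. Itgav, the integrin subunit alpha V, was called at -0.96 ± 0.21 (adjusted p = 0.0378), as were Ptprk, a receptor phosphatase (-0.86 ± 0.16, adjusted p = 0.0154), and Igfbp4, which binds insulin-like growth factors (-0.96 ± 0.22, adjusted p = 0.0436), with the opposite sign on a linear scale of group means. Chst3 (-1.08), a sulfotransferase of chondroitin, A4galt (-1.11), which makes the glycolipid Gb3, Apob (-1.09), the apolipoprotein of lipoprotein particles, Mab21l4 (-1.05) and Plch1 (-1.56 ± 0.36), a phospholipase C, were among the 15 most negative. Vmn1r20 (-1.26 ± 0.27) belongs to the large family of vomeronasal receptors. It lay between 7.62 and 9.82 on sham arrays and between 3.50 and 4.37 on rhabdomyolysis arrays, where its means straddle the arrays' lower quartiles, so its fold is not exact.

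Oligonucleotide effects called with opposite signs were rare. Tbc1d15, an inhibitor of the GTPase Rab7 in late endosomes, had 6.96 to 7.74 on sham mock and 6.43 to 6.97 on sham anti-miR-22 arrays. In injured kidneys it had 7.33 to 7.87 with mock and 7.63 to 8.52 with anti-miR-22. The effects were -0.64 and 0.47, with overlap at the edges in both settings, and the interaction was 1.11 ± 0.22 (adjusted p = 0.0228). Plppr2, a phospholipid phosphatase related protein, had effects of 0.61 in sham and -0.50 in rhabdomyolysis, with an interaction of -1.11 ± 0.24 (adjusted p = 0.0364), while its other, brighter probe was not called. The third was a probe without a gene symbol. Over all probes, these 3 compare with 1218 whose effects were called in both settings with the same sign.

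The oligonucleotide effect was called in sham alone for Metap1d, Lrrc52, Sfxn5, Chst3 and Vmn1r20. Lrrc52, an auxiliary subunit of potassium channels (1.00 ± 0.23, adjusted p = 0.0487, not called with the replicate number as a block at 0.0705), had group means of 5.81 and 4.75 in sham and 3.45 and 3.38 in injured kidneys, the latter pair below the lower quartiles. No detection call was used, so whether a difference between the injured groups could be measured at that level was not tested. Of the remaining called genes most were higher. They were the cyclophilin Ppic (1.18 ± 0.25), Phldb1 (0.97), Rcc2 (0.96), Arf2 (0.93), Ncaph2 (0.93), Fance (0.93), Mprip (0.88), Nkapd1 (0.79) and Slc49a4 (0.75), with Sel1l3 (-0.89) lower. Ppic had one of the larger oligonucleotide effects, 1.35 in sham and 2.53 in rhabdomyolysis.

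Genes examined for their large oligonucleotide effects had no called interaction. Foxp1, a forkhead transcription factor, had 7.76, 6.82, 7.81, 7.68 and 7.69 on sham mock and 11.37, 11.38, 11.29, 11.67 and 11.54 on sham anti-miR-22 arrays. Injured kidneys had 6.15, 6.77 and 7.51 with mock and 10.59, 10.98 and 11.30 with anti-miR-22. The groups given anti-miR-22 lay above those given mock whether or not injury was present, and the interaction was 0.21 ± 0.28 (adjusted p = 0.824). Ppdpf had -0.36 ± 0.28, Med15, a Mediator subunit, 0.26 ± 0.27, Pum2, an RNA-binding repressor, 0.20 ± 0.19, and Pkm, pyruvate kinase, -0.09 ± 0.18. Their oligonucleotide effects ran from 1.45 to 3.37. Among 30 measured genes reported as miR-22 targets, none was called. At an unadjusted p below 0.05, 6 were lower (20%) and 2 higher (6.67%), and the median was -0.03. The number lower was 2 without sham anti-miR-22 5, and 1 to 2 were higher in fits without 1 array. The transcription factor Srf had 0.93 ± 0.29 (adjusted p = 0.130).

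None of the injury genes examined had a called interaction. Havcr1 had 1.85 ± 1.03 (adjusted p = 0.478), and 0.40 without sham mock array 1. Lcn2 had 0.88 ± 0.77 (adjusted p = 0.707), and -0.19 without it. On rhabdomyolysis arrays alone, Havcr1 had medians of 18.77 with mock and 18.77 with anti-miR-22. Hmox1, the heme-degrading enzyme heme oxygenase 1, had responses of 5.08 and 5.13 and an interaction of 0.04 ± 0.27. The fibrinogen genes Fgg (0.69 ± 0.54), Fga (0.05 ± 0.41) and Fgb (-1.43 ± 0.53, adjusted p = 0.220) did not pass, nor did Timp1 (0.32), Myc (-0.18), Sox9 (0.98 ± 0.48), Pdk1 (0.31), Umod (0.10), Slc12a1 (-0.50) and Egf (-0.48). The oligonucleotide difference itself was called in rhabdomyolysis for Fgb (-1.44) and Sox9 (1.13), and in sham for Egf (0.58). The glycerol responses of these genes, Havcr1 and Lcn2 included, ran up to 11.78 for Havcr1 and down to -9.45 for Egf, both under anti-miR-22. Just outside the threshold, with glycerol responses called in opposite directions, were Gtf2a2, a general transcription factor subunit (1.12, adjusted p = 0.0518), Olfr1107, an olfactory receptor (-1.15, adjusted p = 0.0531), and Rnf31, a subunit of the linear ubiquitin ligase (-1.11, adjusted p = 0.0553).

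Across the 50 lists no more than 1 member of any list was called, and 9 lists had a called member. The called members were 9 of the 1043 genes measured in the lists, beside 85 of the 22205 probes tested (0.383%). Unfolded protein and integrated stress response genes had members past the unadjusted threshold in both directions. Of 20 measured, 5 were higher (25%), the transcription factors Atf4 (0.95), Atf5 (0.76) and Ddit3 (0.52) with Chac1 (0.94) and Ppp1r15a (0.41). The 4 lower ones (20%) were Xbp1 (-0.46), Pdia6 (-0.55), Sel1l (-0.62) and Psat1 (-0.65), and the median was 0.15. The count higher was 3 without sham anti-miR-22 2. The count lower was 1 without that array or sham mock 5, and 2 without rhabdomyolysis mock 4, 5, 6 or 7, rhabdomyolysis anti-miR-22 4, sham anti-miR-22 1 or sham mock 4. Of 26 cytochrome P450 and conjugation genes, 6 were lower (23.1%) and 0 higher, with a median of -0.25. Of 27 tubular injury markers, 2 were higher and 3 lower, and without sham mock array 1 the counts were 0 and 5. Over all fits without 1 array they ran from 0 to 6 and from 2 to 5. In rhabdomyolysis 4 of the 27 had an oligonucleotide difference called higher and 6 lower, and in sham 1 and 1. Of 15 thick limb and distal tubule markers, 3 were lower (20%) and 0 higher, with a median of -0.31, and 6 were lower without rhabdomyolysis mock 4. Heat shock, T and NK cell, adipose and adrenal lists had 0 members past the unadjusted threshold in either direction, as did the 5 B cell and 3 red cell markers measured, and none of these lists had more than 1 in either direction in a fit without 1 array. At the unadjusted threshold 1 of 26 cell cycle genes was higher and 0 lower, and their median was 0.36. Their median oligonucleotide difference was -0.46 in sham and -0.12 in rhabdomyolysis. The median glycerol response was -0.02 with mock and 0.04 with anti-miR-22. The count higher was 6 without sham mock 4, 3 without sham mock 1 or sham anti-miR-22 2, and 1 or 2 without any other array.

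**Figure D5:**
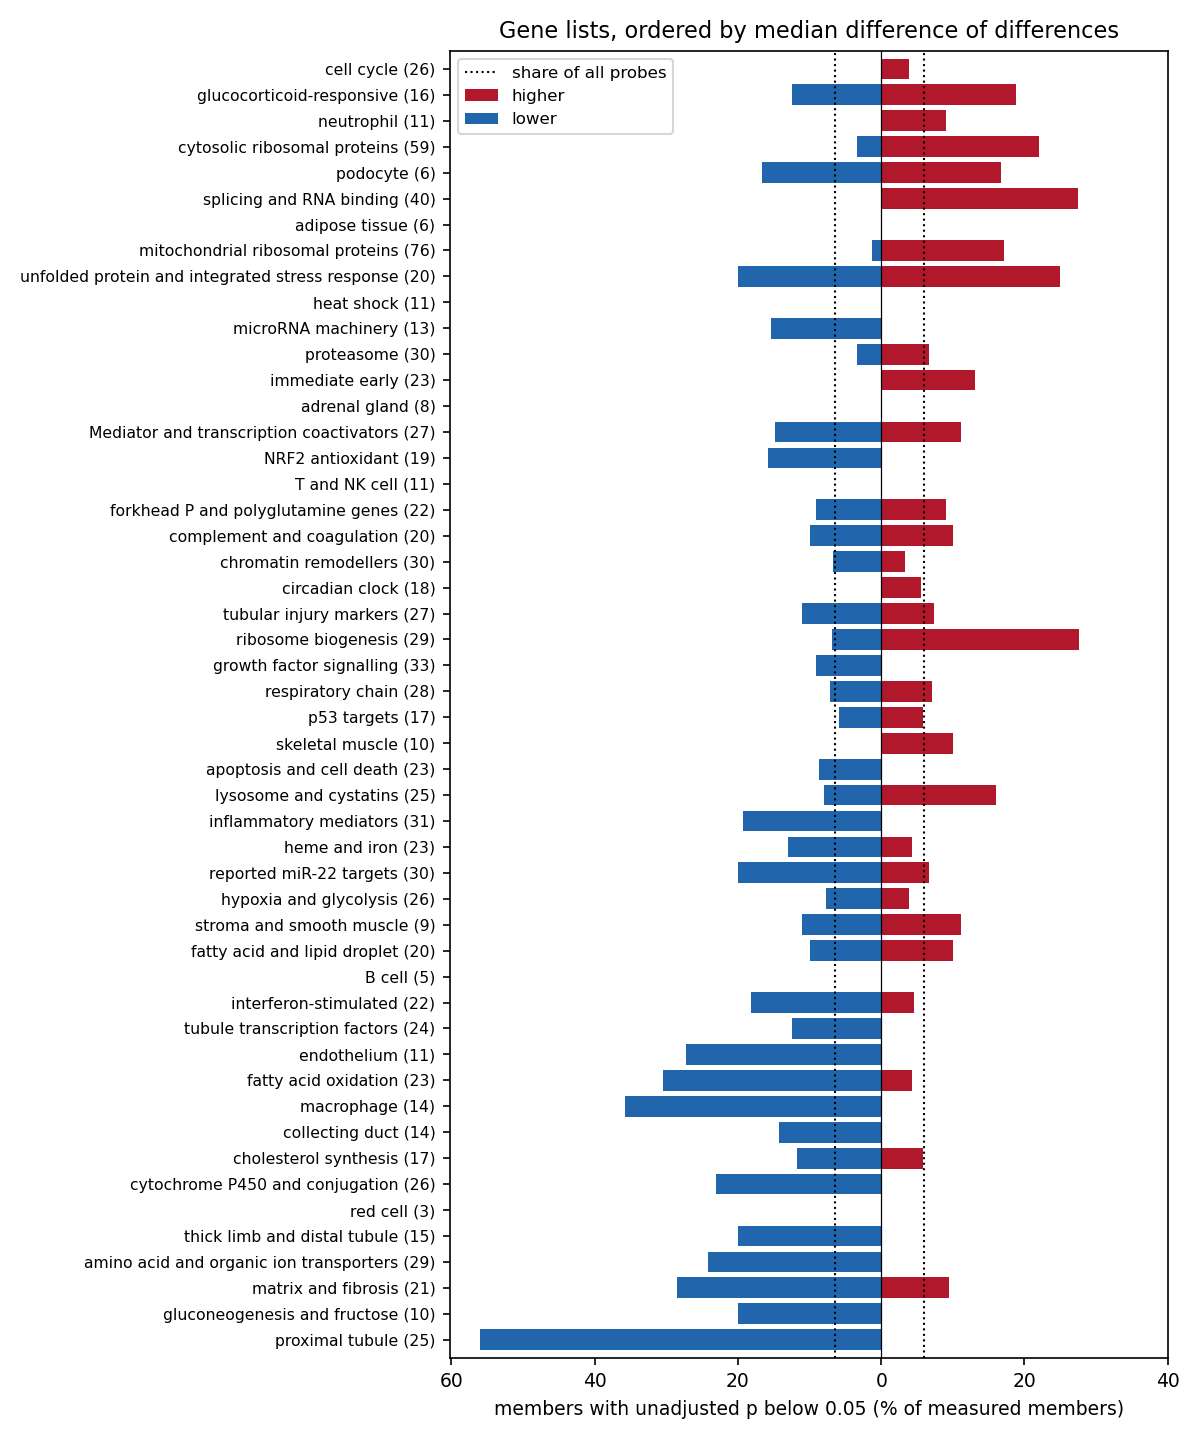
Share of the measured members of each of 50 gene lists (number measured in brackets) with an unadjusted interaction p below 0.05, higher in red to the right and lower in blue to the left, ordered by median interaction. Dotted lines mark the shares over all probes, 5.98% higher and 6.39% lower, and proximal tubule markers have the longest bar at 56% lower.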

How the data were processed

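The authors deposited log2 values. The submitters' processing notes name RMA, a method of background correction, between-array normalization and probe summary, and Partek 6.4, with no roles or settings. RMA compresses differences among dim probes. Of 22206 lines, 1 was dropped because it had values on just 5 arrays. Exactly 1 gene symbol was known for 19572 of the 22205 probes, and 2633 had none. Where a gene had several probes (55 genes), lists used the one with the highest mean.

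Arrays were grouped by title (5, 5, 7 and 7). All 24 arrays entered one linear model with a mean per group (limma 3.58.1, lmFit and eBayes, R 4.3.3). Tests were two-sided, with Benjamini-Hochberg adjustment across the 22205 probes, and a probe was called below an adjusted 0.05. Errors in the text are standard errors of the fit. Array medians were 5.752 to 5.857 and lower quartiles 3.909 to 4.028, and no detection call was used. The fit was run on simulated data with independent normal noise, which checks the code and not the calls made here. Differences are of log2 values. On a linear scale of group means, 81 of 85 called probes kept their sign (not Kdr, Igfbp4, Slc16a7 and Slc25a11).

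Genes were named by rule: the 15 highest and 15 lowest called, called list members (up to 3 per direction), called genes whose oligonucleotide effects had opposite signs (up to 10), genes whose glycerol responses had opposite signs (up to 12), the 5 smallest adjusted p, and 20 fixed genes. Other called genes, and the list members given as examples, were picked after their values were seen. Members and the 50 lists, 14 of cell types and 36 of responses, were chosen with earlier results of these data known. Alternatives were other variance moderation, array weights, a second quantile normalization, median centring, bright probes only, the replicate number as a block, and leaving out each array. Listed genes without a matched symbol were not analysed here.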

Additional observations from a re-analysis of the deposited data

Results flagged for a closer look

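Sample values that stood apart from the rest of their group were found for 22 of the 432 gene and group pairs examined. The limit used passes about 1 in 20 pairs of random values. Genes on the same array are not independent, and how these values arose was not tested. The widest was Havcr1 on sham mock array 1 (14.59), with Lcn2 on the same array at 13.70. In sham mock kidneys, Zfp664 (7.31) and Olfr1107 (4.09) stood apart on array 4 and Foxp1 (6.82) on array 2. In sham kidneys given anti-miR-22 these were Ddx24 (10.66, array 3), Sel1l3 (10.14, array 1), Chst3 (6.59, array 2), Cst3 (12.70, array 2) and Umod (18.02, array 4). In injured kidneys given mock they were Avpi1 (4.91, array 2), Polr2h and Vmn1r20 (7.36 and 3.50, array 7), and Exoc4 and Pdk1 (14.52 and 6.81, array 6). In injured kidneys given anti-miR-22 they were Ppic (11.57), Itgav (14.13) and a probe without a symbol (8.46) on array 1, AU040320 (9.03) and Ppdpf (9.21) on array 2, Sox9 (10.21) on array 5 and Slc12a1 (8.67) on array 4.

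By limma's interaction term the effect of anti-miR-22 differed between sham and injured kidneys for 85 probes. For 3 of them the effect was called in both settings with opposite signs, with interactions of 1.11 (Tbc1d15), -1.11 (Plppr2) and 1.29 (a probe without a symbol).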

How the results depend on the processing

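The number of called probes, 85 (46 higher, 39 lower), depended on the settings. It was 173 (82 and 91) with trended, robust moderation, 141 (70 and 71) with array weights, 136 (69 and 67) after a second quantile normalization, and 266 of 11812 (113 and 153) when dim probes were left out. Median centring gave 91 (48 and 43). All 85 were among the calls with the other moderation, with weights and after the second normalization. Leaving out 1 array gave 28 to 138 calls, 17 to 63 higher and 11 to 75 lower. The share of higher calls was 54.1%, against 42.5% without dim probes. No called probe changed sign in any of the 30 alternatives, but on a linear scale of group means the sign of Kdr, Igfbp4, Slc16a7 and Slc25a11 was the opposite. Among named genes without a call the sign turned only when 1 array was left out: Lcn2 ranged from -0.19 to 1.30, Hmox1 from -0.17 to 0.18, Fga from -0.26 to 0.29, Myc from -0.50 to 0.04 and Timp1 from -0.09 to 0.54. With the replicate number as a block 89 probes were called (44 and 45), 68 of them shared with the 85 and 17 lost. Same-numbered arrays did not deviate together, with a median correlation of 0.011 over 32 pairs and 1 pair above 0.1, so the numbers were not taken as pairs. Folds of dim genes are not exact, and 4 called probes had a group mean below the lower quartile.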

Other observations

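The 3 largest fitted interactions that were not called were looked up after the values were seen. A probe without a gene symbol had 5.74 ± 2.27 (limma, adjusted p = 0.265). Its values were scattered within every group, from 2.57 to 11.00 on sham mock, 2.76 to 7.03 on sham anti-miR-22, 5.95 to 11.73 on rhabdomyolysis mock and 2.81 to 16.18 on rhabdomyolysis anti-miR-22 arrays. Cish, a feedback inhibitor of cytokine receptor signalling through STAT5, had -2.21 ± 0.54 (adjusted p = 0.0564). It had medians of 6.09 and 7.94 on sham mock and sham anti-miR-22 arrays, and of 8.03 and 6.80 on the corresponding rhabdomyolysis arrays. Sprr2f, a small proline-rich protein of epithelia, had 2.08 ± 0.49 (adjusted p = 0.0506), with a median of 5.00 in both sham groups, 9.37 in injured kidneys given mock and 11.41 with anti-miR-22.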
